A study of Mus musculus with 4 samples.

Results

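The adrenomedullin receptor genes were followed in granulosa cells (GCs) of the mouse, the follicle's somatic cells that enclose and feed the oocyte. Members were 8 of the 55385 genes in the count table, chosen by gene symbol: the ligand genes Adm and Adm2, the receptor genes Calcrl and Calcr, the receptor activity-modifying protein (RAMP) genes Ramp1, Ramp2 and Ramp3, and Vps25, which shares exons with Ramp2 on the same strand. GCs came from preantral follicles of Kunming mice aged 12 to 14 days and had grown in vitro for 6 days, with neurotrophin-4 (NT-4, a ligand of the TRKB receptor) in the NT4 group and without it in the Control group. Follicles were cultured singly, and by the study's methods the medium of both groups held FSH, insulin, transferrin and fetuin. Each group had 2 bulk RNA-seq libraries, with totals of 49520092 to 78704020 counts over the 4 libraries. About 4 counts stood for 1 read pair, so the libraries held an estimated 12380023 to 19676005 read pairs. The study describes the GC samples of a group as coming from independent experiments, and the labels do not say how mice were divided among them, so the p-values measure the spread between these samples. The question was whether NT-4 in the medium went with other levels of this ligand and receptor system in GCs.

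Adrenomedullin is a vasodilator peptide that acts through a receptor built from a pair of membrane proteins. The calcitonin receptor-like receptor, encoded by Calcrl, reaches the cell surface together with a RAMP, and the RAMP decides what it binds: with RAMP1 it is the receptor for calcitonin gene-related peptide, and with RAMP2 or RAMP3 it is a receptor for adrenomedullin. Signalling runs mainly through the stimulatory G protein and cyclic AMP. The system is best known from blood and lymphatic vessels, and adrenomedullin is also made in the ovary. VPS25 belongs to another system, as a subunit of ESCRT-II, a complex that sorts membrane proteins into endosomes for degradation.

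With NT-4, both libraries lay above both Control libraries for Adm, Adm2, Calcrl, Ramp2 and Ramp3, so that 5 of the 6 tested ligand, receptor and RAMP genes separated upward. Apart from Ramp2, which shares exons with Vps25, 4 of these genes separated upward. Over all 19259 genes that passed the filter on low counts, 13.4% separated in this way. The median log2 fold change of the 6 genes was 0.62, beside 0.0045 over all genes tested. Vps25 separated downward, as did 12.7% of all genes. None of the 7 tested members passed an adjusted p of 0.05 in edgeR's quasi-likelihood test, where 0% of all genes did and the smallest adjusted p of any gene was 0.130. At an unadjusted p of 0.05, 3 of the 7 passed (Ramp2, Ramp3 and Vps25), against 1.99% of all genes. The calls of Ramp2 and Vps25 are not independent, since reads in their shared exons can be given to either gene. With a fold above 2 required as well, 1 of the 7 remained (Ramp3), against 1.08% of all genes. DESeq2, edgeR's exact test and limma voom also called 0 members at an adjusted p of 0.05, where they called 0.311%, 0.296% and 0% of all genes. The smallest was for Vps25 with DESeq2, at 0.108. The edgeR adjusted p of each of the 7 tested members was 0.9999. The unadjusted p was 0.00913 for Vps25, 0.0244 for Ramp2, 0.0480 for Ramp3, 0.0631 for Adm2, 0.127 for Adm, 0.279 for Calcrl and 0.351 for Ramp1 in the same test.

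The annotation shows what the counts of Ramp2 and Vps25 have in common. On GRCm38, Ramp2 lies on the forward strand at chr11:101246028-101259546 and Vps25 at chr11:101253707-101259549. GENCODE release M21 lists 8 transcripts for Ramp2 and 7 for Vps25, all on the same strand. The genes share 1103 exon bases, 33.4% of the 3301 exon bases of Ramp2 and 67.2% of the 1642 of Vps25. All of the shared bases belong to a single Ramp2 transcript, Ramp2-203, and the other Ramp2 transcripts share 0 bases with Vps25. Ramp2-203 is annotated as subject to nonsense-mediated decay. It has 8 exons and 1478 bases, starts with 2 exons of Ramp2 and then runs through the exons of Vps25, where it contains 99.7% of the 1106 bases of Vps25-202, a protein-coding transcript.

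**Figure D1:**
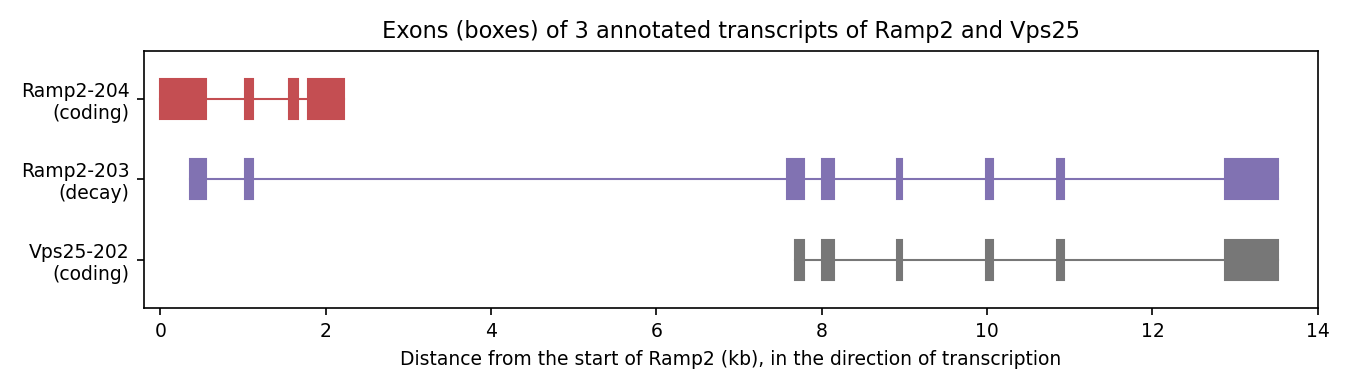
Exons of 3 annotated transcripts, drawn to scale as boxes against the distance in kb from the start of Ramp2, with introns as lines. The protein-coding Ramp2-204 ends before Vps25-202 begins, while Ramp2-203 (annotated for nonsense-mediated decay) spans both genes and has its last 6 exons over those of Vps25-202.

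The last 6 exons of Ramp2-203 cover nearly the same bases as Vps25-202. The junctions below show where transcripts can and cannot be told apart. Each is read 5′ to 3′ from the GRCm38 genome, with the upstream exon in lower case and the downstream exon in capitals. The first joins chr11:101247144 to chr11:101247586 and the second joins the same upstream exon to chr11:101253604.
Ramp2-204, the second to the third exon: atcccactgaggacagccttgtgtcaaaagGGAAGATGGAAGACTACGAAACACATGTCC
Ramp2-203, the second to the third exon: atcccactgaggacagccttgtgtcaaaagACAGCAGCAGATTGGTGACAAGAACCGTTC
Both start in the same exon of Ramp2 and part at the capitals. The first is found in 4 of the 8 Ramp2 transcripts, the second in Ramp2-203 alone, and neither in a Vps25 transcript. The next pair, from chr11:101253807 to chr11:101254031, are identical in Ramp2-203 and Vps25-202 and are found in 5 of the 7 Vps25 transcripts, so a read across this junction fits either gene.
Ramp2-203, the third to the fourth exon: cccgcccttctttacGTTACAGCCGAACGT
Vps25-202, the first to the second exon: cccgcccttctttacGTTACAGCCGAACGT
The third exon of Ramp2-203 starts 103 bases before Vps25 does. The 250 bases before the Vps25 start, chr11:101253457-101253706 on the forward strand (RefSeq promoter table, GRCm38.p6), therefore end in exon sequence of Ramp2, shown in capitals.
Vps25 upstream: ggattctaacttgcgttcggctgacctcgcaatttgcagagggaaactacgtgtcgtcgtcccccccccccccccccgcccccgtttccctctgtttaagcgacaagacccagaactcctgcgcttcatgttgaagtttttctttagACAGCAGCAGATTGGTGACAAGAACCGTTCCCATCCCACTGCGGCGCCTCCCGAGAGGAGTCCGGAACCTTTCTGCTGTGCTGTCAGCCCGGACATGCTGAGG
The processed counts are per gene and do not keep reads by junction. How much of either gene's count came from Ramp2-203 was not tested.

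Both ligand genes were expressed at low levels. Adm (chr7:110627661-110629820, forward strand), which encodes the adrenomedullin precursor, had 2.49 and 2.06 CPM (counts scaled to a common library size with edgeR's TMM factors) in Control and 3.50 and 3.0 in NT4. The lower NT4 library stood above the higher Control library. Estimated read pairs were 31, 38, 54 and 58 in the same order. The log2 fold change was 0.51 (SE 0.28), with means of 2.28 ± 0.304 and 3.25 ± 0.354 CPM (SD, n = 2). Adm2 (chr15:89322720-89324731, forward strand) encodes intermedin, a peptide of the same family that acts on the same receptors. It had 2.11 and 1.56 CPM in Control and 3.24 and 2.84 in NT4, again without overlap. The log2 fold change was 0.73 (SE 0.31). Adm and Adm2 had the closest profiles of any 2 members, with a Euclidean distance of 0.251 between their centred log2 CPM over the 4 libraries.

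The receptor genes were low or at 0. Calcrl (chr2:84330626-84425411, reverse strand), the receptor that all 3 RAMPs can join, had 0.936 and 1.03 CPM in Control and 1.49 and 1.21 in NT4. These values rested on 12, 19, 23 and 23 read pairs. The groups did not overlap, yet the log2 fold change of 0.45 was little larger than its SE of 0.38, and the ratio of summed read pairs, 1.32, had a 95% counting interval of 0.819 to 2.15. Calcr (chr6:3685680-3764714, reverse strand), the calcitonin receptor, which forms amylin receptors with RAMPs, had 0 counts in all 4 libraries and was not tested. A count of 0 allows up to 3 read pairs, or 0.156 to 0.239 CPM depending on the library, for counting error only. The exact 95% intervals for a count of 0 are two-sided and end higher, at 0.191 to 0.294 CPM.

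Ramp1 (chr1:91179822-91225196, forward strand), whose protein turns the Calcrl product into the receptor for calcitonin gene-related peptide, was the only tested RAMP gene whose groups overlapped. It had 3.29 and 4.03 CPM in Control and 3.16 and 6.54 in NT4. The NT4 libraries were the lowest and the highest of the 4. The log2 fold change was 0.41 (SE 0.40) and it changed sign, to -0.21, when the second NT4 library was left out.

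Ramp2, which supplies the RAMP of the main adrenomedullin receptor, had 3.35 and 3.28 CPM in Control and 4.88 and 8.32 in NT4. The Control libraries were nearly equal, and the NT4 libraries were both higher but far apart. The means were 3.31 ± 0.0465 and 6.60 ± 2.43 CPM (SD, n = 2), on 42, 60, 76 and 160 read pairs. The log2 fold change of 0.99 (SE 0.32) is a 1.99-fold difference, just under the 2-fold limit. It was 0.56 without the second NT4 library and 1.32 without the first, and it lost an unadjusted p under 0.05 in edgeR without either Control library or the second NT4 library, with values of 0.0539 to 0.114.

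Ramp3 (chr11:6658521-6677475, forward strand), whose protein also forms an adrenomedullin receptor, had the largest fold change and the fewest reads of the 7 tested members. Its levels were 0.239 and 0.258 CPM in Control and 0.850 and 0.584 in NT4, which are 3, 5, 13 and 11 read pairs. The first Control library stood exactly at the limit that a count of 0 allows. The log2 fold change was 1.52 (SE 0.59), and the ratio of summed read pairs, 2.67, had a 95% counting interval of 1.16 to 6.87. Ramp3 had an unadjusted p of 0.0480 in edgeR's quasi-likelihood test. With all libraries kept, it was above 0.05 with library totals (0.0501), the replicate block (0.0777), DESeq2 (0.0908) and limma voom (0.0761). It stayed under 0.05 with DESeq2 size factors, upper-quartile factors, no filter on low counts and edgeR's exact test. Leaving out any single library took its unadjusted p above 0.05, to between 0.0735 and 0.216 in edgeR. Ramp3 shares 101 exon bases, 7.32% of its exons, with the pseudogene Gm11978 on the opposite strand, which had 0 counts in 3 libraries and 2 in the second NT4 library. Whether counting used strand is not stated.

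**Figure D2:**
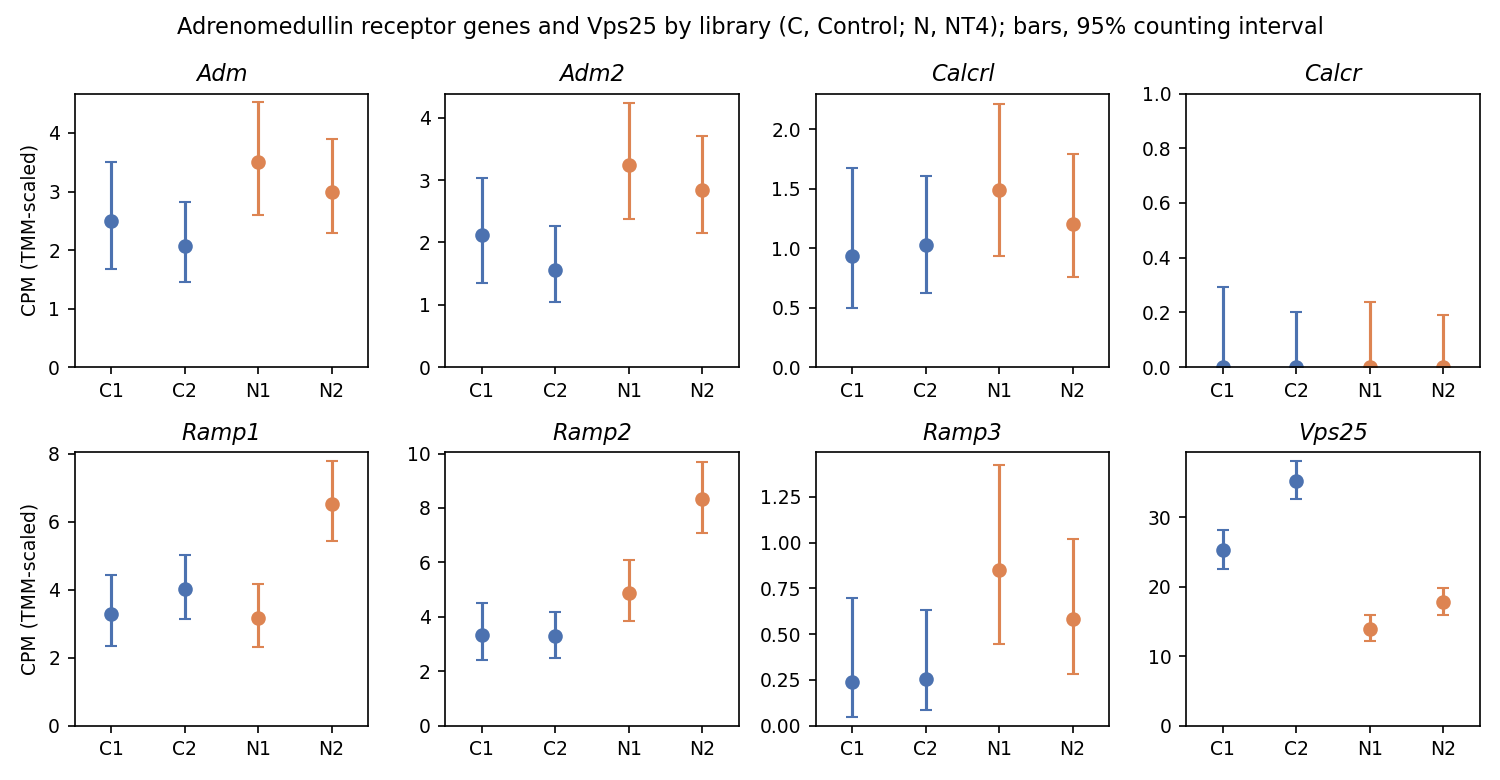
Level of each gene in each library in TMM-scaled CPM on linear axes that start at 0 and differ by gene (C1 and C2, Control; N1 and N2, NT4; bars, exact 95% interval for counting error of the estimated read pairs). Adm, Adm2, Calcrl, Ramp2 and Ramp3 have both NT4 points above both Control points, Ramp1 overlaps, Calcr is at 0, and Vps25 has both NT4 points below both Control points.

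Vps25 had the most reads of the members and went the other way from its overlapping neighbour. It had 25.3 and 35.2 CPM in Control and 13.9 and 17.8 in NT4, on 317, 650, 217 and 343 read pairs. Both NT4 libraries lay below both Control libraries. The means were 30.3 ± 7.05 and 15.9 ± 2.73 CPM (SD, n = 2), and the log2 fold change was -0.93 (SE 0.23). Leaving out single libraries gave -1.16 to -0.66, with unadjusted p between 0.00419 and 0.0472 in edgeR.

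Because reads in shared exons can be given to either gene, the counts of Ramp2 and Vps25 were also summed and tested as 1 feature. The sum was 28.6 and 38.5 CPM in Control and 18.8 and 26.1 in NT4. It followed Vps25: both NT4 libraries lay below both Control libraries, at a log2 fold change of -0.58 (SE 0.24) and an unadjusted p of 0.0574 in edgeR. This p lies close to 0.05 and fell under it with library totals (0.0456), no filter on low counts (0.0335), DESeq2 (0.0290), limma voom (0.0462) and the replicate number as a block (0.00737). The value itself rested on single libraries: the log2 fold change was -0.34 without the second Control library and -0.37 without the first NT4 library, with unadjusted p of 0.286 and 0.196 in edgeR, and -0.78 and -0.84 without the first Control or the second NT4 library. The ratio of summed read pairs was 0.662, with a 95% counting interval of 0.603 to 0.726. Ramp2 was thus a larger share of a smaller sum. NT4 minus Control was 3.28 CPM for the mean of Ramp2 and -14.4 CPM for that of Vps25, so the difference in Ramp2 was 22.8% of the size of that in Vps25.

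Ramp2 took 11.7% of the read pairs of both genes in the first Control library (95% exact binomial interval 8.56% to 15.5%) and 8.52% in the second (6.51% to 10.7%). In NT4 it took 25.9% (21% to 31.4%) and 31.8% (27.8% to 36.1%). No NT4 interval reached a Control interval. The mean share was 10.1% ± 2.25 in Control and 28.9% ± 4.19 in NT4 (SD, n = 2), a difference of 18.8 percentage points with a two-sided exact permutation p of 0.333, the smallest that 2 libraries against 2 can give. The difference stayed between 15.8 and 21.7 percentage points when any 1 library was left out. The intervals leave out any error from PCR duplicates, and they take each pair as assigned to 1 gene by the authors' counting.

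**Figure D3:**
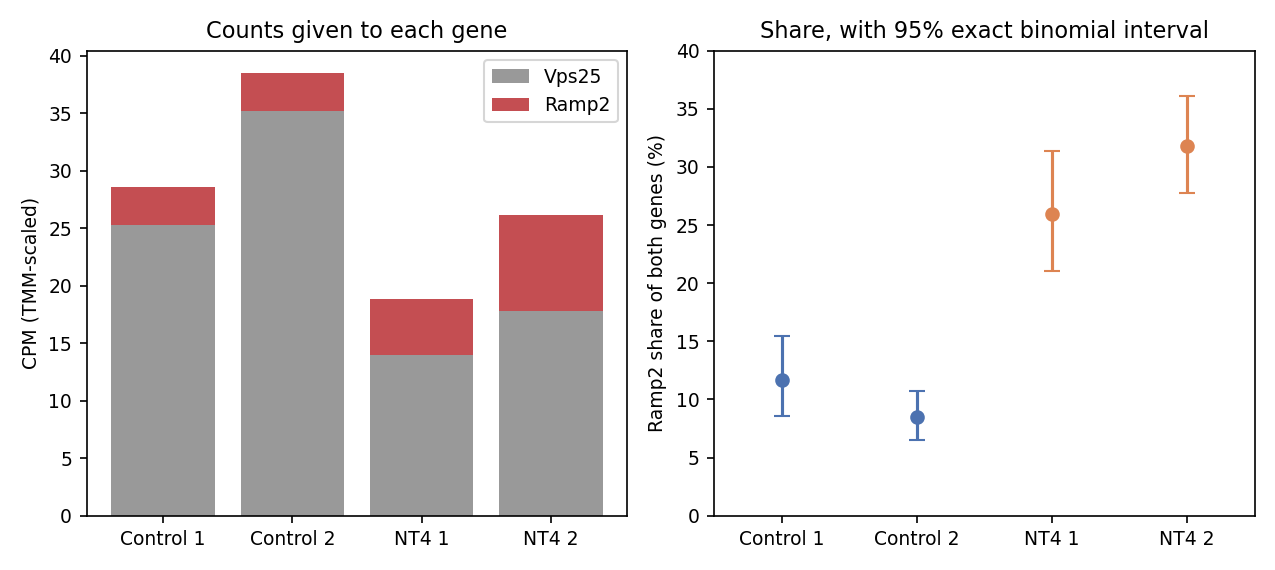
Left, TMM-scaled CPM given to Vps25 (grey) and Ramp2 (red), stacked, in each library. Right, Ramp2 as a percent of the read pairs of both genes, with exact 95% binomial intervals. The stack is lower in both NT4 libraries (18.8 and 26.1 CPM against 28.6 and 38.5), and the Ramp2 share is higher (25.9% and 31.8% against 11.7% and 8.52%).

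Other genes can share exons in the same way, so the pair was set among all protein-coding pairs that share exon bases on the same strand. There were 522 such pairs with both genes tested. The log2 fold changes of Ramp2 and Vps25 differed by 1.92, against a median difference of 0.449 over the pairs. This ranked 78 among the 522, and 14.9% of pairs differed by at least as much. The pairs are not independent, since a gene in a cluster can be in up to 20 of them. In 151 pairs neither gene was in another pair, and of these 7 (4.64%) differed by at least as much, with a median difference of 0.284. In 33 of the 522 pairs (6.32%), 1 gene lay above and the other below in both NT4 libraries, as Ramp2 and Vps25 did.

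**Figure D4:**
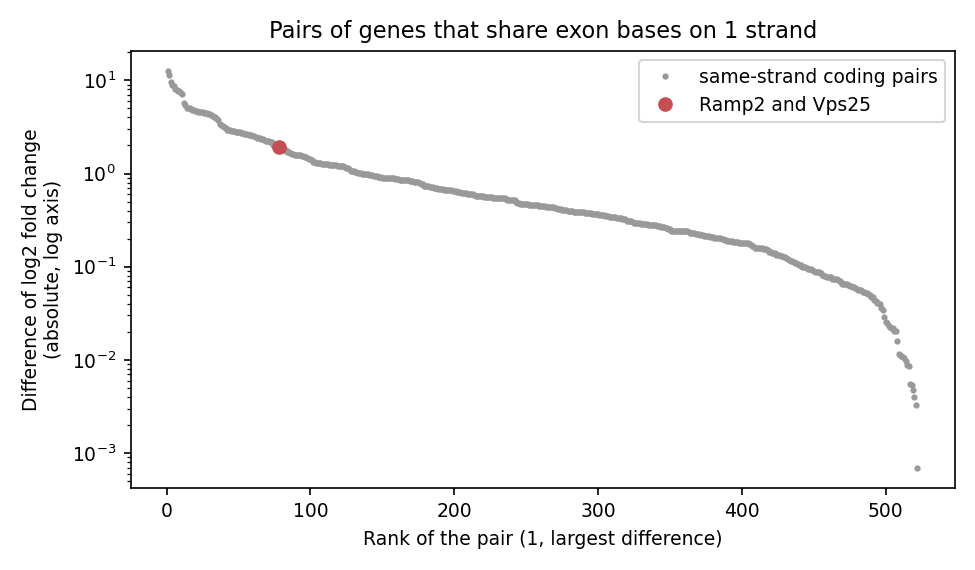
Absolute difference of log2 fold change (log axis) between the 2 genes of each of 522 same-strand protein-coding pairs with shared exon bases, by rank. The Ramp2 and Vps25 pair (red) differs by 1.92 and ranks 78.

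Of the 5 genes around the locus, 3 differed little between the groups. Ezh1, a histone methyltransferase gene upstream, had a log2 fold change of -0.01, and Coa3 and Becn1, downstream genes for a cytochrome oxidase assembly factor and an autophagy factor, had 0.02 each. The other 2 lie downstream on the same strand as Ramp2. In each, both NT4 libraries stood above both Control libraries, as they did in 13.4% of all genes. Wnk4, which encodes a kinase, had 1.63 and 1.11 CPM in Control and 2.28 and 1.74 in NT4, a log2 fold change of 0.55. Cntd1, a cyclin-related gene, had 0.578 and 0.231 CPM in Control and 0.626 and 0.584 in NT4, a log2 fold change of 0.59.

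**Figure D5:**
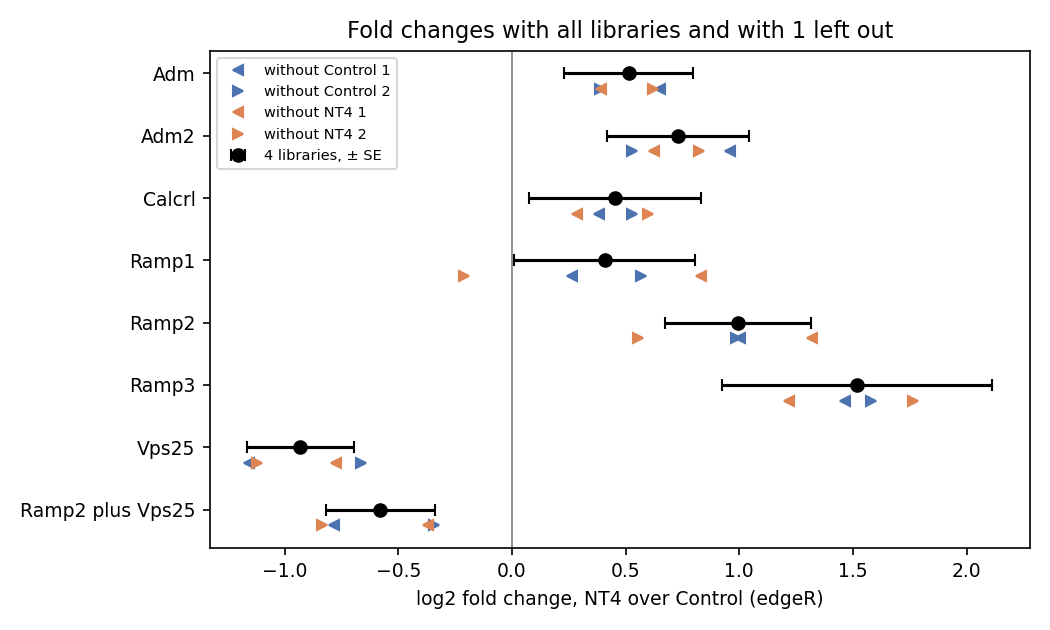
Log2 fold change of NT4 over Control for each tested gene and for the summed counts of Ramp2 and Vps25 (black, ± SE from all 4 libraries), with the values after leaving out 1 library as triangles. The values without 1 library keep their side of 0 except for Ramp1 without the second NT4 library (-0.21).

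Levels were compared between genes as CPM per kb of exon, since longer genes collect more reads. In Control, Vps25 led with 18.4 ± 4.29 CPM per kb (SD, n = 2). Adm2 (1.41 ± 0.301), Adm (1.41 ± 0.188) and Ramp1 (1.21 ± 0.173) followed and did not differ beyond their spread. Ramp2 came next at 1.0 ± 0.0141, below the range of Ramp1, with 1.09 and 1.33 against 1.01 and 0.994 in the Control libraries. Calcrl (0.202 ± 0.0136) and Ramp3 (0.180 ± 0.00950) were lowest of the detected genes, with 0.192 and 0.211 against 0.173 and 0.187 in the Control libraries. In NT4 the order was Vps25 (9.67 ± 1.66), Adm2 (2.34 ± 0.218), Adm (2.01 ± 0.219), Ramp2 (2.0 ± 0.737), Ramp1 (1.61 ± 0.790), Ramp3 (0.520 ± 0.137) and Calcrl (0.276 ± 0.0413). Adm2 stood just above Adm there, with 2.50 and 2.19 against 2.16 and 1.85, while Ramp2 overlapped Adm2, Adm and Ramp1. Ramp3 lay above Calcrl in both NT4 libraries. This order depends on the length used. Divided by the length of exon bases that no other gene shares, the CPM of Ramp2 came to 1.51 per kb in Control and 3.0 in NT4. Divided by its longest transcript, it came to 2.24 and 4.46. The whole gene's CPM was divided each time, so reads in shared exons are included. On either of these lengths both Control libraries of Ramp2 stood above both of Ramp1, the reverse of the order over all exons, and over longest transcripts they also stood above those of Adm and Adm2. Over longest transcripts, Adm (1.64 in Control and 2.34 in NT4) and Adm2 (1.41 and 2.34) overlapped in both groups. The whole CPM of Vps25, with reads in shared exons, came to 56.1 and 29.4 per kb when divided by its unshared exon length. These are therefore not levels over the unshared bases alone. Divided by its longest transcript, it came to 24.8 and 13.0. In both groups, the Calcrl level per kb was below those of Ramp1, Ramp2, Adm and Adm2.

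Among the related ligand genes, Calca and Iapp, for calcitonin with its gene-related peptide and for amylin, had 0 counts in all 4 libraries. Calcb, the second gene for the gene-related peptide, had 7 counts in the second Control library only. None of the 3 was tested. Of 6 genes for ligand processing and clearance, 0 passed an unadjusted p of 0.05, against 1.99% of all genes. None separated by group, where 13.4% of all genes did upward and 12.7% downward. Their median log2 fold change was 0.05. Pam, which amidates the peptide's C terminus, had a log2 fold change of 0.10. Ackr3, an atypical receptor that takes up adrenomedullin, had 0.12 and Crcp, the gene of a receptor component protein, had -0.05.

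Receptors that RAMPs can also join were sparse. Of 10 listed, 5 passed the filter on low counts, and their median log2 fold change was 0.22. Of the 5, 0 passed an unadjusted p of 0.05, against 1.99% of all genes. Both NT4 libraries lay above Control in 2 of the 5 and below in 1, against 13.4% and 12.7% of all genes. Gper1, a membrane oestrogen receptor, had a log2 fold change of 0.22 and Gcgr, the glucagon receptor gene, -0.39. Vipr2, a receptor for vasoactive intestinal peptide, had 0.299 and 0.339 CPM in Control and 0.562 and 0.675 in NT4, a log2 fold change of 0.95 with an SE of 0.57. Glp1r, the receptor for glucagon-like peptide 1, was high in the first NT4 library alone, with 0.797 and 0.814 CPM in Control and 2.23 and 0.752 in NT4.

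Downstream of the receptors, 27 genes of the stimulatory G protein and cyclic AMP pathway were tested. Of these, 0 passed an adjusted p of 0.05 in edgeR, and the median log2 fold change was 0.05. At an unadjusted p of 0.05, 2 passed (Creb1 and Adcy4), against 1.99% of all genes. Both were higher in NT4, but Adcy4 passed the filter on low counts only through the NT4 libraries. It could therefore be called only as higher, and its call and direction add no support. Both NT4 libraries lay above Control in 4 of the 27, Adcy4 among them, and below in 1, against 13.4% and 12.7% of all genes. Creb1, a transcription factor that protein kinase A activates, had 25.4 and 25.7 CPM in Control and 53.4 and 45.2 in NT4. The groups lay far apart, with a log2 fold change of 0.95 (SE 0.15, adjusted p = 0.817 in edgeR). Adcy4, an adenylyl cyclase gene, had 0 counts in both Control libraries and 30 and 41 counts in NT4. The NT4 mean was 2.12-fold the larger of the Control floors of 3 read pairs per library. This ratio gives NT4 no counting error, so it is not a lower limit. With Adcy4 at this ratio the list's median was still 0.05. The most abundant genes of the list moved little: Gnas, the stimulatory G protein subunit, had a log2 fold change of 0.07 and Prkar2b, a regulatory subunit of protein kinase A, -0.05.

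VPS25 belongs to the ESCRT machinery. Of 14 other genes of that machinery that were tested, 0 passed an unadjusted p of 0.05, against 1.99% of all genes. In each direction 1 separated, where 13.4% of all genes did upward and 12.7% downward. The median log2 fold change was 0.03. Chmp4b, a subunit of ESCRT-III, had 0.09, and Vps4b, the ATPase that takes the complex apart, 0.03. Chmp3 was high in the second Control library alone, with 33.4 and 78.0 CPM in Control and 32.5 and 31.1 in NT4. Chmp6 had 0.17. Adm is a known target of the hypoxia response, of which 18 genes were tested. None passed an unadjusted p of 0.05, against 1.99% of all genes. Of the 18, 2 separated upward and 0 downward (13.4% and 12.7% over all genes), and the median log2 fold change was 0.13. Ldha and Pgk1, for glycolytic enzymes, had 0.31 and 0.32, both highest in the second NT4 library. Pdk1, a kinase that limits entry of pyruvate into mitochondria, had 51.3 and 52.8 CPM in Control and 61.5 and 63.7 in NT4, a log2 fold change of 0.27 with an SE of 0.12.

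The genes whose profiles lay closest to a member were picked by the Euclidean distance between centred log2 CPM over the 4 libraries, among about 14333 genes with a mean of at least 1 CPM. Nearest to Ramp2 were Thoc7 (distance 0.133), an mRNA export factor with 35.0 and 30.2 CPM in Control and 46.3 and 81.5 in NT4, and Ankrd37 (0.194), which is on the hypoxia list and had 1.24, 1.30, 1.70 and 2.78 CPM. Nearest to Adm were Cacng7 (0.0126), P2rx4 (0.0447) and Twist1 (0.0653). Nearest to Ramp1 were Lck (0.0855), Bnip3 (0.0913) and Slc25a25 (0.104), each highest in the second NT4 library. Nearest to Calcrl was Cep126 (0.0281), to Adm2 Gm15801 (0.0568), to Ramp3 Wasf3 (0.343) and to Vps25 Gm44669 (0.201). These distances over 4 libraries are a description.

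Markers of other cell types were set beside these results, since the receptor is best known from endothelium. The 12 granulosa markers were all detected and summed to 12150 and 15400 CPM in Control and 10540 and 17200 in NT4. Of the 12, 0 separated by group, where 13.4% of all genes did upward and 12.7% downward. Foxl2, Fshr and Amh, which define GCs, had 162, 108 and 91.5 CPM in the library where each was lowest. The 13 endothelial markers summed to 50.8 and 41.2 CPM in Control and 51.6 and 45.3 in NT4, with no separation of the sums, though of the 12 tested genes 4 lay above and 1 below, against 13.4% and 12.7% of all genes. Pecam1, an adhesion molecule of endothelium, had 1.89 and 1.38 CPM in Control and 0.642 and 1.61 in NT4. Cdh5, another marker on this list, had 21.5 and 16.4 CPM in Control and 25.4 and 18.0 in NT4, and its groups overlapped. Tek, the angiopoietin receptor gene, had 0.159 and 0.190 CPM in Control and 0.947 and 0.441 in NT4. The 3 lymphatic markers summed to 7.59 and 9.18 CPM in Control and 6.02 and 9.92 in NT4. Flt4, a receptor for lymphatic growth factors, carried most of that sum and overlapped. Both NT4 libraries lay below Control in the other 2, as they did in 12.7% of all genes. Prox1, a transcription factor of lymphatic endothelium, had 1.93 and 2.08 CPM in Control and 1.73 and 1.39 in NT4, and Lyve1, a hyaluronan receptor gene, had 0.339 and 0.407 CPM in Control and 0 and 0.208 in NT4. Lyve1 rested on few reads, with 17 and 30 counts in Control and 0 and 16 in NT4, where the floor of 3 read pairs is 12 counts.

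Most of the listed markers of theca and stroma also had both NT4 libraries above both Control libraries. The 10 markers summed to 1102 and 1070 CPM in Control and to 1571 and 1267 in NT4, and both NT4 libraries lay above Control in 7 of the 10, against 13.4% of all genes, while Insl3, Ptch1 and Col1a2 overlapped. Their median log2 fold change was 0.39, and 3 of 10 had an unadjusted p under 0.05 in edgeR, against 1.99% of all genes, with an adjusted p of 0.9999 for each of the 10. Cyp17a1, the theca enzyme of androgen synthesis, had 72.2 and 133.6 CPM in Control and 133.9 and 173.3 in NT4. Acta2, the smooth muscle actin gene, had 234.8 and 211.8 CPM in Control and 310.4 and 295.6 in NT4. In bulk RNA, fewer cells of a type and less RNA per cell cannot be told apart, and the part of theca and stroma cells in the values of the receptor genes was not tested. The 9 oocyte markers summed to 70.8 to 101.3 CPM and the 6 macrophage markers to 1.38 to 3.13 CPM, neither separated by group. The 6 markers of surface epithelium summed to 0.637 to 1.01 CPM, and 2 of them were at 0 throughout.

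Promoter sequence was read for the members as a description, from RefSeq's table for GRCm38.p6, which covers 250 bases before to 50 after each start and held 8 windows for 7 of the 8 members (Ramp2 has none). Adm is shown because it is the ligand of the receptor and the only member whose window holds the letters TATAA, on either strand, which 24.9% of all 32851 windows hold. The 250 bases before its RefSeq start, chr7:110627407-110627656 on the forward strand, carry the match in capitals, where TTATAA reads as TATAA on both strands.
Adm upstream: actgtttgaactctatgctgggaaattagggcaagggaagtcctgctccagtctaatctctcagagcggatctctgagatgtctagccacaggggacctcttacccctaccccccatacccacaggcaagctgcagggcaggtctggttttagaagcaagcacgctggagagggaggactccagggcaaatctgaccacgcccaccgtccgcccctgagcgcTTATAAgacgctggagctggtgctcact
The hypoxia response core ACGTG, found in 19.6% of all windows on either strand, was in that of Vps25 and in no other member's. The cyclic AMP response letters TGACG (20.8% of windows) were in the windows of Ramp1 and Calcr, and GGGCGG (35.7%), the GC box, was in those of Calcrl, Calcr, Adm, Ramp3 and Vps25. CCAAT (37.4%) was in that of Vps25 alone.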

How the data were processed

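GCs had been sequenced in bulk in 4 libraries, 2 per group by their GEO labels. By their methods, the authors removed adaptor and low-quality reads with Cutadapt, mapped the rest with HISAT2 to the mouse genome (Ensembl v99; the processing notes name mm10), and assembled transcripts with StringTie, whose levels StringTie and ballgown estimated. What they deposited per gene are expected counts, written as whole numbers with no scaling for depth. The step to whole counts and the use of strand are not stated. Between 45.4% and 46.2% of counts from 1 to 12 sat at 4, 8 or 12, so 1 read pair was taken as 4 counts. Depth sets precision: intervals (95%) are exact and cover counting error only.

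The expected counts were tested as deposited with edgeR 4.0.16 in R 4.3.3 by its quasi-likelihood test (TMM, default filter on low counts, group alone, two-sided, Benjamini-Hochberg adjustment over 19259 genes). Summed Ramp2 and Vps25 counts replaced both genes in a separate fit. A fold above 2 at an unadjusted p under 0.05 follows the study's methods. Alternatives were other scalings and filters, DESeq2 1.42.0, edgeR's exact test, limma 3.58.1 (voom), a replicate block, counts divided by 4 and leaving out each library. Positions and exons came from GENCODE M21 on GRCm38, matched by identifier for 55144 of 55385 genes.

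Members and gene lists were chosen with earlier results of these data known. Named were all members, genes that overlap them, the 2 most abundant and up to 2 others of smallest p per pathway list, up to 3 nearest profiles per member, and the first markers of each cell type. A gene that this rule names is not reported here. Pdk1 and Ankrd37 fall under this rule, and Acta2 and the genes next to Ramp2 were added after their values were seen.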

Additional observations from a re-analysis of the deposited data

How the results depend on the processing

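Of 110 log2 fold changes recomputed for the 7 tested members and the summed counts, 109 kept their direction and side of an adjusted p of 0.05. The exception was Ramp1, which was -0.21 without the second NT4 library (range over left-out libraries -0.21 to 0.83). Leaving out single libraries gave 0.56 to 1.32 for Ramp2, -1.16 to -0.66 for Vps25 and -0.84 to -0.34 for the summed counts. The number of members with a fold above 2 at an unadjusted p under 0.05, which was 1 (Ramp3), was 0 with library totals, with a filter of at least 1 CPM in 2 libraries, with DESeq2's Wald test, with limma voom, with the replicate block and with counts divided by 4, and 3 (Ramp2, Ramp3 and Vps25) at a fold of 1.5. Of all genes tested, 1.07%, 0.6%, 1.23%, 0.966%, 0.935% and 0.76% met the criterion under these 6 alternatives in the same order, and 1.57% at a fold of 1.5. Over left-out libraries it was 0 to 1 (1.68% to 2.53% of all genes), with 0 without the second Control library, and the gene that met it was then Vps25 (without the first Control or the second NT4 library) or Ramp2 (without the first NT4 library). Ramp3 had too few counts for the CPM filter and for counts divided by 4, so it was not tested there. The same 5 genes had both NT4 libraries above both Control libraries under each of 3 scalings chosen after seeing the data (library totals, DESeq2 size factors and counts divided by 4, where the levels of Ramp3 were compared without a test). These could hardly change the order of libraries. Division by 4 is a constant rescaling apart from rounding. Library totals and DESeq2 size factors moved the median log2 fold change of all genes only from 0.0045 to -0.0159 and 0.000416. The restriction to pairs of overlapping genes in which neither gene is in another pair was also chosen after seeing the data.

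Same-numbered libraries are not said to share an experiment. Their deviations from the group means correlated at 0.14 (Pearson) and 0.26 (Spearman) across 19259 genes. With the replicate block, 0 members passed an adjusted p of 0.05 in edgeR, and the log2 fold changes were 0.95 for Ramp2, -0.92 for Vps25 and -0.58 for the summed counts. Unadjusted p-values with the block crossed 0.05 for the summed counts (0.00737 against 0.0574 without it), Adm2 (0.0433 against 0.0631) and Ramp3 (0.0777 against 0.0480). Depth limits Ramp3 and Calcrl most, with 8 and 31 read pairs in Control.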
